A study of Mus musculus with 71 samples.

Results

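Hippocampal mRNA from 6 mice on a high fat-high sucrose diet with time-restricted feeding (HFS TRF) was compared with mRNA from 6 mice that had the same diet at all hours (HFS ad lib), both taken from the home cage at zt3 (HC zt3), 3 h after lights-on. All mice were male wild-type C57BL/6J, and the HFS diet began at weaning. HFS TRF mice first ate ad lib and in the last weeks had food only from shortly before dark until shortly after lights-on, so that at zt3 their food had been withdrawn while HFS ad lib mice still had theirs. The 12 mice were all the mice of both groups, out of 71 mice in the series, and 30141 of 57010 genes, those with at least 10 counts over the 71 mice, were tested. Chow-fed mice with free access at the same hour (NC ad lib, 6 mice) are given beside them as a level of reference. Each library is 1 mouse.

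The RNA was bound to ribosomes whose protein S6 was phosphorylated, pulled down with an antibody to that phosphorylated form (pS6-TRAP), which enriches for messages in translation in cells with active S6 kinase signalling. In a nocturnal mouse the first hours of light are when feeding stops and the body turns towards fatty acids and ketone bodies. In liver and muscle this turn is carried by PPAR targets such as Pdk4, by FoxO targets such as Irs2 and by glucocorticoid-induced genes such as Fkbp5 and Sgk1. The clock is a loop in which BMAL1 with CLOCK or NPAS2 activates the Per, Cry and Rev-erb (Nr1d1, Nr1d2) genes, whose products repress it, and DBP, TEF and HLF carry its phase to further genes. Meal time is a strong signal for the clocks of peripheral organs.

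Total counts of the 12 mice lay between 50094958 and 62758570. Of counts from 1 to 20, 79.5% were even, as arises where both reads of a pair are counted, so a count of 2 at the low end can stand for 1 fragment. In both groups the library was neuronal by its markers (the 10 neuronal markers summed to 17620 to 19740 CPM, a library's counts scaled to a common total, in HFS ad lib and to 16340 to 20080 CPM in HFS TRF mice). Libraries stood apart in ways the groups did not share evenly, and these are given before the results. The 10 astrocyte markers summed to 1107 to 1360 CPM in HFS ad lib replicates 1 to 4 and to 3401 to 3705 CPM in replicates 5 and 6, and in HFS TRF mice to 1016 to 1464 CPM and 2357 to 2510 CPM. The 14 choroid plexus and ependyma markers summed to 126.7 to 6552 CPM in HFS ad lib and 127.9 to 7538 CPM in HFS TRF mice, 13 of 14 with a positive log2 fold change (median 0.45), and on the first principal component of the 12 mice, 48.1% of the variance, the 3 lowest scores belonged to the 3 mice with sums under 142 CPM and the 3 highest to the 3 mice with sums of 6552 CPM or more.

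No gene passed the test of feeding schedule at HC zt3. At an adjusted p under 0.05 there were 0 DEG of 30141 (0%) in edgeR (quasi-likelihood, p adjusted by Benjamini-Hochberg over all of them), and the smallest adjusted p was 0.847. At an unadjusted p under 0.05 there were 1774 genes (5.89%), 758 higher in HFS TRF mice (2.51%) and 1016 lower (3.37%). The DESeq2 Wald test called 1 gene and had 857 at an unadjusted p under 0.05. That gene was Iglc1, an immunoglobulin light chain segment, with 0, 0, 10, 1, 2 and 0 counts in HFS ad lib mice and 0 in each HFS TRF mouse. Replicates 1 to 4 of both groups alone also gave 0 DEG in edgeR's test, with 950 genes at an unadjusted p under 0.05.

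The comparison was tight enough to bound most differences. Of 11797 genes with a mean log2 CPM above 2, an unadjusted p under 0.05 was found for 190 with higher values (1.61%) and 374 with lower values (3.17%). Of these 11797, 11758 had a log2 fold change within 1.5-fold in either direction, and for 11038 of them (93.6%) the 95% interval of the difference lay within 1.5-fold. The 6 HFS TRF mice all exceeded the 6 HFS ad lib mice for 41 of these genes (0.348%) and all lay under them for 18 (0.153%).

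The smallest p belonged to Htr4, which encodes a serotonin receptor coupled to cAMP production. Its level was 7.84, 8.25 and 8.74 CPM (lowest, median, highest) in HFS ad lib mice and 4.93, 5.37 and 6.71 CPM in HFS TRF mice. Every HFS TRF mouse was under every HFS ad lib mouse, and so were the NC ad lib mice, at 5.47, 6.08 and 6.96 CPM, which overlapped with the HFS TRF mice. The log2 fold change was -0.54 (standard error 0.12, unadjusted p = 4.8e-05, adjusted p = 0.847). Fitted with the 36 mice of the first experiment, which hold both groups, Htr4 was the single DEG (log2 fold change -0.55, adjusted p = 0.0013 in edgeR's quasi-likelihood test), and with replicates 1 to 4 only the log2 fold change was -0.48. In other mice on the same feeding schedules it was -0.10 at HC zt15 and -0.12 at ORM+1 h, 1 h after object recognition memory training.

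Behind Htr4, the protein-coding genes with the smallest p among lower values were Ints6, a subunit of the Integrator complex that processes RNA, Styx, a catalytically inactive phosphatase, Trps1, a GATA-type transcriptional repressor, and Tet1, an enzyme that oxidises 5-methylcytosine in DNA. Ints6 measured 14.3, 19.2 and 23.5 CPM in HFS ad lib and 11.9, 14.6 and 15.3 CPM in HFS TRF mice, a log2 fold change of -0.41 (standard error 0.10). For Trps1 the levels were 19.4, 28.1 and 31.8 CPM against 16.9, 20.8 and 23.1 CPM (log2 fold change -0.39, standard error 0.11), and for Tet1 2.99, 3.79 and 4.61 CPM against 2.10, 2.56 and 3.21 CPM (log2 fold change -0.58, standard error 0.16). The groups of these genes overlapped in their extremes, and no adjusted p was under 0.847. Styx, at 1.05 to 2.01 CPM and 0.445 to 1.33 CPM, was low in all mice (log2 fold change -0.89).

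Among higher values, Stx4a, a syntaxin of the plasma membrane fusion machinery that also serves insulin-driven transport of glucose carriers in muscle and fat, measured 33.7, 34.1 and 38.5 CPM in HFS ad lib and 38.9, 40.7 and 43.1 CPM in HFS TRF mice. The groups did not overlap, though the gap between HFS ad lib replicate 4 and the lowest HFS TRF mouse was small (log2 fold change 0.22, standard error 0.06, adjusted p = 0.847 in edgeR's test). Gstp2, a glutathione transferase whose reads may be shared with its close copy Gstp1, had a log2 fold change of 0.50 (standard error 0.15) and Pde9a, a cGMP phosphodiesterase, of 0.34 (standard error 0.11). Pde9a lay at 9.13, 11.0 and 11.9 CPM against 11.9, 13.8 and 15.7 CPM. Tuba3a and Slc22a13b also had small p at levels close to 0. Tuba3a had 0 counts in each HFS ad lib mouse and 2 to 8 counts in HFS TRF mice, but also 2 to 8 counts in 4 NC ad lib mice, and its reads may be shared with other tubulin genes.

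**Figure D1:**
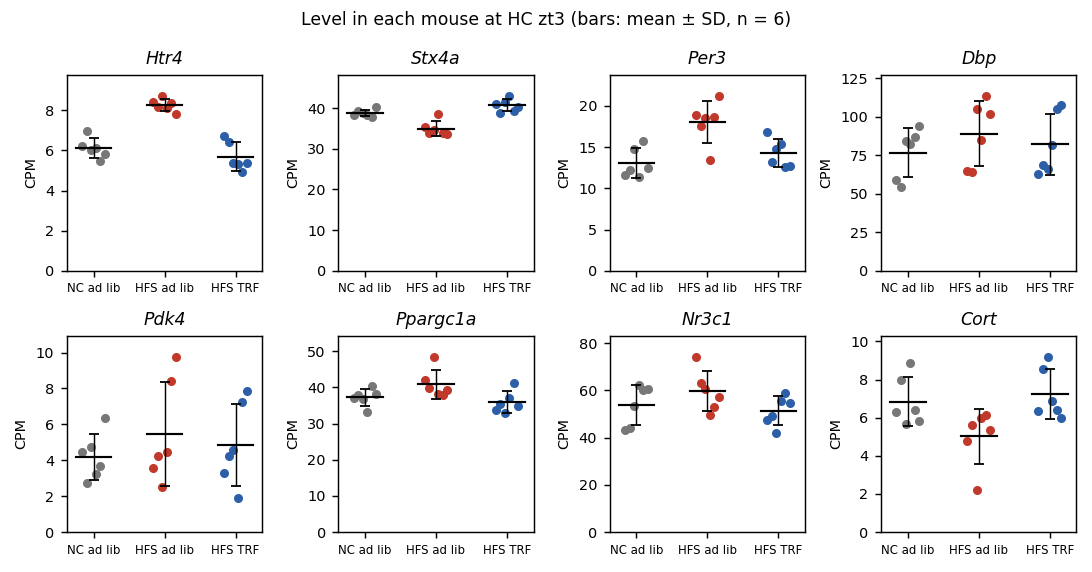
Level of 8 genes in each mouse at HC zt3, in CPM on a linear axis from 0; points are mice, bars the mean ± SD (n = 6) for NC ad lib (grey), HFS ad lib (red) and HFS TRF (blue). Htr4 and Stx4a separate the HFS groups, whereas Dbp and Pdk4 spread as widely within a group as between groups.

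A few of the genes whose groups did not overlap are given as examples, chosen after their values were seen. Psmc5, an ATPase of the proteasome's regulatory particle, measured 174 to 199 CPM in HFS ad lib and 203 to 207 CPM in HFS TRF mice (log2 fold change 0.15), and its partner Psmc3 229.7 to 266.9 CPM against 267.1 to 281 CPM (log2 fold change 0.15). Kars1, the lysyl-tRNA synthetase, measured 102 to 119.5 CPM against 120.5 to 125 CPM (log2 fold change 0.14). Setd1b and Ash1l, histone methyltransferases, measured 33.1 to 43.9 CPM against 27.8 to 33.0 CPM (log2 fold change -0.24) and 179.8 to 209 CPM against 152 to 173 CPM (log2 fold change -0.23). None had an adjusted p under 0.847.

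Clock genes lay close to 0. Of the 24 genes of the core clock and its output, 0 were DEG, and at an unadjusted p under 0.05 none was higher and 2 were lower (8.33%, beside 3.37% of all genes lower), the median log2 fold change was -0.06 (0 over all genes tested), and for 22 of 24 the 95% interval lay within 1.5-fold. The 2 genes were Per3 and Cry1. Their promoters are shown with that of Per1, whose log2 fold change was -0.06, as windows that hold sequence elements known to bind clock factors. Each is the 250 bases before the start in RefSeq's GRCm38.p6 annotation, in the gene's direction. Capitals mark the D-box TTATGTAA, which DBP, TEF, HLF and NFIL3 bind, and the E-box CACGTG, which BMAL1 dimers bind:
Per3 (chr4:151044666-151044915, minus strand): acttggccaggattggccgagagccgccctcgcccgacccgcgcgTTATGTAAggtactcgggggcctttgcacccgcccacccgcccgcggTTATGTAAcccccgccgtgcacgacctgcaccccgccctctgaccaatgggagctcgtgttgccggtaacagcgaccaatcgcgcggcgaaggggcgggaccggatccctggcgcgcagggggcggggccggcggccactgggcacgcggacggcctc
Cry1 (chr10:85185055-85185304, minus strand): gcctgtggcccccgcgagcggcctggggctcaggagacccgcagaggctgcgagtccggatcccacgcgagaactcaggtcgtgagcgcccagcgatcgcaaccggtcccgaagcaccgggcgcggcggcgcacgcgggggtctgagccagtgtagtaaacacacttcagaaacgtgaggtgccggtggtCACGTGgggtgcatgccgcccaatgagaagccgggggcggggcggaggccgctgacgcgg
Per1 (chr11:69098699-69098948, plus strand, the first of its 2 starts): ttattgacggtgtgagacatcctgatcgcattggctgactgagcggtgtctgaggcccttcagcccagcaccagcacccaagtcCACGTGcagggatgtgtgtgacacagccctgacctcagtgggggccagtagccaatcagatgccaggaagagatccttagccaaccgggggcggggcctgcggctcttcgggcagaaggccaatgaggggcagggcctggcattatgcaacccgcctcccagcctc

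Per3 held 2 D-boxes, ending 198 and 151 bases before the start, Cry1 an E-box ending 55 bases before it and Per1 an E-box ending 161 bases before it. Searched on both strands, the E-box was in 6.02% and the D-box in 0.819% of 32851 promoters of 250 bases, and the RORE, to which ROR and Rev-erb receptors bind, in 0.0426%. Of the 19 clock genes with a promoter available, 5 held this E-box, 1 this D-box and 0 this RORE, and 13 held none of the 3. Only these exact letters were searched, so a variant element, or one cut by the window's edge, would not be found. The window of the second Per1 start also held none. The letters describe the window and do not show binding.

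Per3, the period gene with the least role in keeping the loop running, measured 13.4, 18.6 and 21.3 CPM in HFS ad lib, 12.6, 14.0 and 16.8 CPM in HFS TRF and 11.4, 12.4 and 15.8 CPM in NC ad lib mice. Of the HFS ad lib mice, 5 of 6 lay above every HFS TRF mouse and the remaining one, replicate 4, lay among them. The log2 fold change was -0.34 (standard error 0.11, unadjusted p = 0.0039), and with replicates 1 to 4 only it was -0.18. Cry1, a repressor of the loop, measured 17.7, 20.4 and 21.8 CPM in HFS ad lib and 15.3, 17.5 and 19.5 CPM in HFS TRF mice (log2 fold change -0.19, standard error 0.09, unadjusted p = 0.027). At HC zt15 the same contrast gave log2 fold changes of 0.14 for Per3 and 0.15 for Cry1. Neither passed the adjusted threshold at either hour.

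Genes at the output of the loop overlapped between the schedules. Nr1d1, which encodes the repressor Rev-erb alpha, measured 95.2, 125 and 153 CPM in HFS ad lib and 109, 112 and 159.9 CPM in HFS TRF mice (log2 fold change 0.02, 95% interval -0.21 to 0.25). Dbp, a transcription factor at the loop's output, measured 64.1, 93.4 and 114 CPM against 62.8, 75.4 and 108 CPM (log2 fold change -0.12, 95% interval -0.44 to 0.20). In both HFS groups replicates 5 and 6 were the highest for Nr1d1, at 141 to 153 CPM against 95.2 to 126 CPM in replicates 1 to 4 of HFS ad lib mice, and at 152 to 159.9 CPM against 109 to 113 CPM in HFS TRF mice. They were also the highest in NC ad lib mice, at 135 to 139 CPM against 114 to 132 CPM. The activator Bmal1 measured 33.6, 37.1 and 47.9 CPM against 34.0, 38.2 and 42.3 CPM (log2 fold change -0.05, 95% interval -0.25 to 0.15), and Clock had a log2 fold change of -0.13, Npas2 of 0.02, Per1 of -0.06 and Per2 of -0.16. Of the other clock genes, Cry2, Tef, Hlf, Csnk1d and Csnk1e lay between -0.04 and 0.02, and Bhlhe40, Bhlhe41, Nfil3, Nr1d2, Ciart, Bmal2, Rora and Rorb between -0.28 and 0.09, with an interval beyond 1.5-fold for Rorb.

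**Figure D2:**
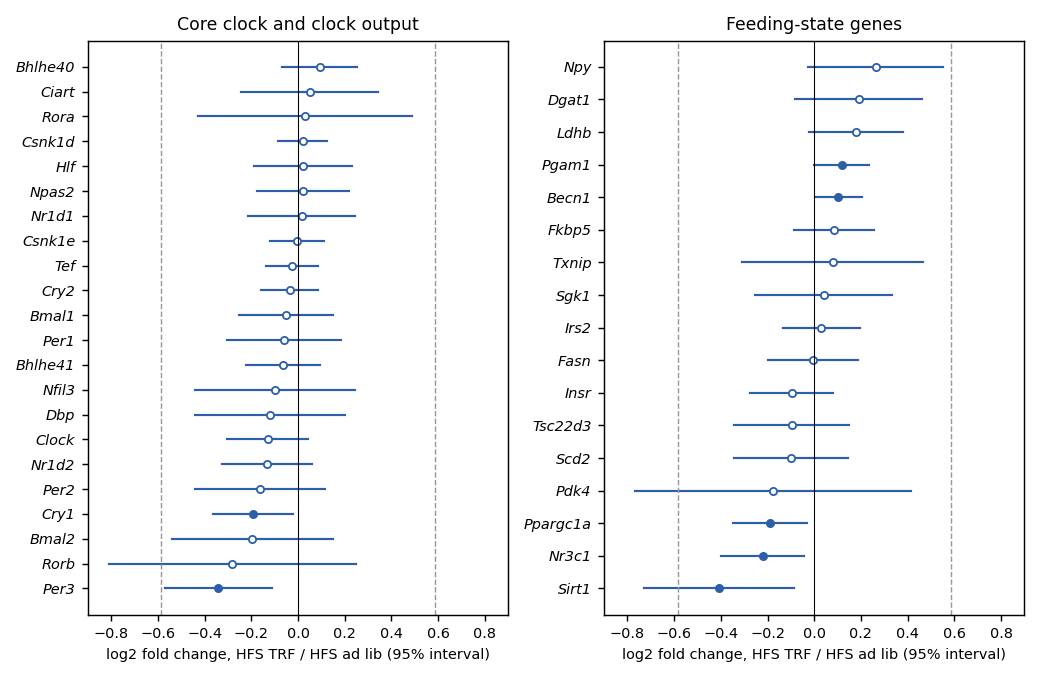
Log2 fold change (HFS TRF over HFS ad lib at HC zt3) with its 95% interval for 22 of the 24 clock genes and 17 feeding-state genes. Filled points had an unadjusted p under 0.05 and none an adjusted p under 0.05; dashed lines mark 1.5-fold, and 21 of the 22 clock genes lie within them with their whole interval.

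Genes that follow food withdrawal in liver and muscle did not pass the test in hippocampus. Food was withdrawn after lights-on and had been gone for under 3 h at zt3, so a longer fast was not tested. Of 38 genes of fatty acid oxidation, ketone metabolism and PPAR targets, 0 were DEG, with a median log2 fold change of 0.02. At an unadjusted p under 0.05 none was higher and 1 was lower (2.63%, beside 3.37% of all genes). Pdk4, the kinase that turns off pyruvate dehydrogenase in fasting, measured 2.52, 4.34 and 9.76 CPM in HFS ad lib and 1.93, 4.42 and 7.83 CPM in HFS TRF mice. Replicates 5 and 6 were the highest of both groups, at 8.39 to 9.76 CPM and 7.26 to 7.83 CPM, and the spread within each group exceeded the difference (log2 fold change -0.18, 95% interval -0.77 to 0.41), so that a fall of over 1.5-fold in Pdk4 was not bounded. The gene with p under 0.05 was Ppargc1a, a coactivator of mitochondrial and gluconeogenic genes, at 37.9, 39.5 and 48.5 CPM against 32.9, 35.1 and 41.3 CPM (log2 fold change -0.19, standard error 0.08). At HC zt15, when food was present, its log2 fold change was also -0.19.

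In insulin, IGF and FoxO signalling, 0 of 38 genes were DEG, with a median of -0.03. At an unadjusted p under 0.05, 1 was lower (2.63%, beside 3.37% of all genes). Irs2, an insulin receptor substrate that FoxO factors induce in fasted liver, measured 119.7, 133 and 145 CPM in HFS ad lib and 121, 137 and 150.3 CPM in HFS TRF mice (log2 fold change 0.03, 95% interval -0.13 to 0.20). The receptor Insr had a log2 fold change of -0.10. Ccng2 and Sesn1, both FoxO targets, had values of -0.16 and -0.14.

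Among 30 glucocorticoid-responsive genes 0 were DEG and 1 was lower at an unadjusted p under 0.05 (3.33%, beside 3.37% of all genes). The median was -0.08 and became 0.04 with replicates 1 to 4 only. Fkbp5, a chaperone partner that glucocorticoids induce, measured 94.7, 104 and 114 CPM in HFS ad lib and 103, 114 and 117 CPM in HFS TRF mice (log2 fold change 0.09, 95% interval -0.09 to 0.26). Sgk1 and Tsc22d3, also induced by the hormone, had log2 fold changes of 0.04 and -0.10. The receptor itself, Nr3c1, was the gene with p under 0.05, at 49.8, 59.0 and 74.2 CPM against 42.0, 52.0 and 58.7 CPM (log2 fold change -0.22, standard error 0.09). It was -0.16 at HC zt15 and 0.15 at ORM+1 h.

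In lipid and sugar metabolism 0 genes were DEG. Of 27 genes of cholesterol synthesis, 0 had an unadjusted p under 0.05, and for 26 of 27 the interval lay within 1.5-fold (median -0.03). Of 24 genes of fatty acid synthesis and desaturation 0 had an unadjusted p under 0.05 (median -0.03), with Fasn at 236, 254 and 289 CPM in HFS ad lib and 245, 259 and 275 CPM in HFS TRF mice and Scd2, the brain desaturase, at a log2 fold change of -0.10. In the list for glucose uptake, glycolysis and glycogen, 22 of 32 genes had positive values. The summed level was 14290 to 16990 CPM in HFS ad lib and 15980 to 17580 CPM in HFS TRF mice. At an unadjusted p under 0.05, 1 was higher (3.12%, beside 2.51% of all genes). That gene was Pgam1, a mutase of lower glycolysis, at 125, 141 and 148 CPM against 145, 149.6 and 154 CPM (log2 fold change 0.12, standard error 0.06), with Ldhb at 0.18 and Pgk1 at 0.12.

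Energy sensing, mTORC1 and autophagy held 34 genes, with 0 DEG. At an unadjusted p under 0.05, 1 was higher and 1 lower (2.94% each, beside 2.51% and 3.37% of all genes). The lower was Sirt1, an NAD-dependent deacetylase, at 4.74, 5.95 and 7.40 CPM in HFS ad lib and 3.37, 4.55 and 5.73 CPM in HFS TRF mice (log2 fold change -0.41, standard error 0.16). The higher was Becn1, a starter of autophagy, at 122, 137 and 141 CPM against 139, 144 and 157 CPM (log2 fold change 0.10, standard error 0.05). Among 24 genes of the integrated stress response and amino acid supply 0 had an unadjusted p under 0.05 (median 0.01), with Atf3 at -0.36 (95% interval -0.84 to 0.11) and Chac1 at 0.13. Heat shock and cold-inducible genes, which follow body temperature, had 0 of 24 at an unadjusted p under 0.05 (median 0.03). Cirbp and Rbm3, the main cold-inducible RNA-binding proteins, had log2 fold changes of 0.18 and 0.20, and of -0.10 and -0.003 with replicates 1 to 4 only.

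Neuropeptides, appetite hormones and their receptors were often scarce, 20 of 38 tested genes having a mean log2 CPM of 2 or less, and 0 were DEG. At an unadjusted p under 0.05, 1 of the 38 was higher (2.63%, beside 2.51% of all genes). It was Cort, a somatostatin-like peptide of interneurons. Cort measured 2.22, 5.48 and 6.12 CPM in HFS ad lib and 5.97, 6.64 and 9.19 CPM in HFS TRF mice (log2 fold change 0.53, standard error 0.20). HFS ad lib replicate 3 was far under its group for Cort and also for Npy, which measured 23.1, 39.3 and 40.8 CPM against 34.5, 41.5 and 54.6 CPM (log2 fold change 0.26). Penk, which encodes enkephalins, had a log2 fold change of -0.32 and Lepr, the leptin receptor, of 0.05. The 3 mice lowest in choroid plexus markers were also lowest in Lepr, at 0.104, 0.157 and 0.234 CPM, the other mice having 1.43 to 7.16 CPM.

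Thyroid hormone transport, metabolism and response held 27 genes with 0 DEG, 2 of them lower at an unadjusted p under 0.05 (7.41%, beside 3.37% of all genes), with a median of -0.02. Slc16a10, an amino acid and thyroid hormone carrier, measured 1.39, 2.08 and 3.66 CPM in HFS ad lib and 1.44, 1.55 and 1.648 CPM in HFS TRF mice (log2 fold change -0.51), and Dio1 had 2 and 4 counts in 2 HFS ad lib mice and 0 in the rest and in every HFS TRF mouse. Dio2, the deiodinase that makes T3 in astrocytes, measured 9.94, 12.2 and 32.2 CPM against 9.63, 11.7 and 24.3 CPM (log2 fold change -0.31, 95% interval -0.79 to 0.16). Dio3, which inactivates T3, measured 1.63, 1.95 and 6.15 CPM against 2.11, 3.09 and 5.09 CPM (log2 fold change 0.25, 95% interval -0.49 to 0.99). The receptor Thra was at 0.04. Of 36 glutamate and GABA receptor subunits 0 were DEG and 2 were lower at an unadjusted p under 0.05 (5.56%, beside 3.37% of all genes), the GABA-A subunits Gabra2 (log2 fold change -0.31) and Gabrb1 (-0.19). These 2 genes have exonic lengths of 8967 and 16877 bases. Among genes with a mean log2 CPM above 2, 3.63% of those from 6625 to 9698 bases and 6.79% of longer ones were lower at that p.

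**Figure D3:**
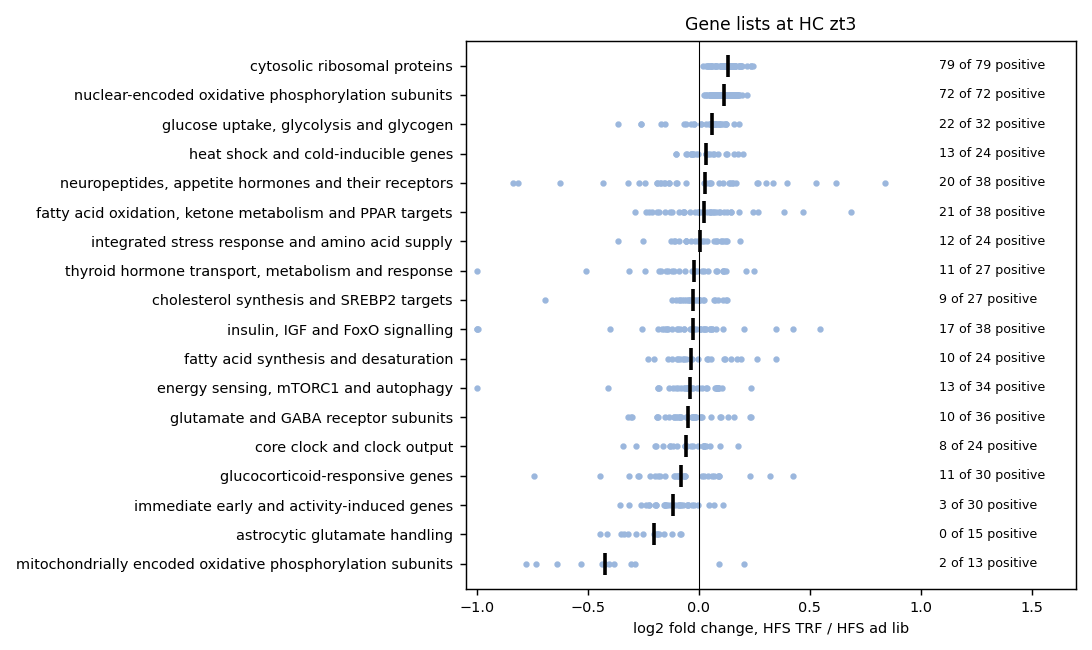
Log2 fold change (HFS TRF over HFS ad lib at HC zt3) of every tested gene in 18 gene lists; each pale point is a gene, drawn at the edge if beyond 1 in either direction, and the black bar is the list's median. Ribosomal protein and nuclear oxidative phosphorylation genes lie to the right of 0 throughout, and astrocytic glutamate genes to the left.

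Ribosomal protein and nuclear oxidative phosphorylation genes had small positive values throughout. All 79 cytosolic ribosomal protein genes had positive values, with a median log2 fold change of 0.13 and a highest of 0.24, and 25 had an unadjusted p under 0.05 (31.6%, beside 2.51% of all genes higher), 0 of them DEG. Summed, they took 7509, 8384 and 9300 CPM in HFS ad lib, 8738, 9029 and 9955 CPM in HFS TRF and 8911, 9040 and 9403 CPM in NC ad lib mice. All 72 nuclear-encoded oxidative phosphorylation genes were likewise positive, with a median of 0.11. Of them, 16 had an unadjusted p under 0.05 (22.2%, beside 2.51% of all genes higher). They summed to 14980, 16060 and 17160 CPM in HFS ad lib and 16550, 17080 and 18060 CPM in HFS TRF mice, so that both lists overlapped between the groups.

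Single members show the size. Rpl18, of the large ribosomal subunit, measured 71.5, 76.3 and 81.5 CPM in HFS ad lib and 81.2, 87.1 and 92.8 CPM in HFS TRF mice (log2 fold change 0.19, standard error 0.07), and Rps3, of the small subunit, 199.5, 221 and 237 CPM against 224, 244 and 272 CPM (log2 fold change 0.15). Ndufb9, of complex I, measured 105, 121 and 132 CPM against 121, 137 and 146 CPM (log2 fold change 0.18) and Cox4i1, of complex IV, 463, 499 and 548 CPM against 547, 556 and 620 CPM (log2 fold change 0.19). No interval of these 151 genes reached beyond 1.5-fold. The 13 subunits encoded in mitochondrial DNA had 11 negative values and a median of -0.42, with mt-Co1 at 93.1, 126 and 241 CPM against 67.0, 94.0 and 126 CPM (log2 fold change -0.53, standard error 0.29), 7 of the 13 being scarce in these polyadenylated libraries. None of the 13 had an unadjusted p under 0.05.

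Log2 fold changes also ran with gene length. Sorted by exonic length into 4 equal parts, the 11782 genes with a mean log2 CPM above 2 and an annotated length had median log2 fold changes of 0.05, 0.01, -0.01 and -0.05 from the shortest to the longest part, and 68.6%, 55.8%, 45% and 30.3% of values were positive. In the same order, 0.747%, 1.49%, 3.63% and 6.79% of genes were lower at an unadjusted p under 0.05, and 3.8%, 1.46%, 0.747% and 0.441% higher. Ints6 and Trps1, among the genes with the smallest p, were in the longest part, which began at 9698 bases. Across genes Spearman's rho between length and log2 fold change was -0.33, genes not being independent replicates. The mean log2 CPM of the longest part minus that of the shortest was 0.749 ± 0.078 (SD, n = 6) in HFS ad lib, 0.654 ± 0.052 in HFS TRF and 0.645 ± 0.037 in NC ad lib mice. HFS ad lib replicate 1 was highest at 0.872, and the groups overlapped, HFS ad lib replicates 4 and 5 lying among the HFS TRF mice. With this index as a covariate the median of the ribosomal protein genes was 0.02 and that of the nuclear oxidative phosphorylation genes 0.01. The index was computed from the same libraries and differed between the groups, so smaller medians could arise from the way it was made. Whether length accounts for these values was not tested.

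**Figure D4:**
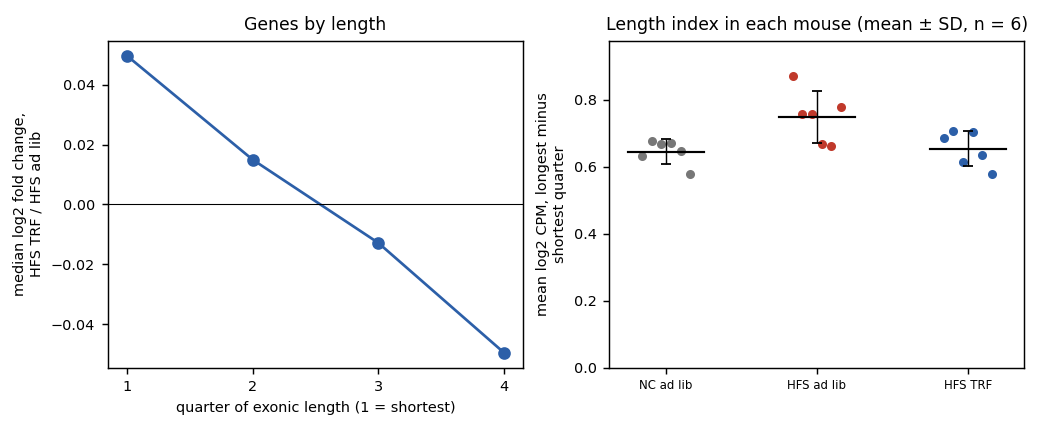
Left, median log2 fold change (HFS TRF over HFS ad lib) of genes in 4 parts by exonic length, from 0.05 in the shortest to -0.05 in the longest. Right, for each mouse the mean log2 CPM of the longest part minus the shortest (points; bars, mean ± SD, n = 6), highest in HFS ad lib mice with overlap between groups.

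Activity-induced and astrocytic genes had mostly negative values, while their medians were positive with replicates 1 to 4 of both groups only. Of 30 immediate early and activity-induced genes 27 had negative values (median -0.12), 0 with an unadjusted p under 0.05, and all 15 genes of astrocytic glutamate handling were negative (median -0.20), also with 0. Slc1a3, the astrocytic glutamate transporter GLAST, measured 92.2 to 111 CPM in HFS ad lib replicates 1 to 4 and 388 to 397 CPM in replicates 5 and 6. In HFS TRF mice it measured 76.5 to 138 CPM in replicates 1 to 4 and 232 to 271 CPM in replicates 5 and 6, and in NC ad lib mice 119 to 178 CPM in all. Fos ran with it, at 6.56 to 10.5 CPM and 25.1 to 29.4 CPM in HFS ad lib mice and at 8.41 to 11.0 CPM and 15.02 to 16.2 CPM in HFS TRF mice.

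Restricted to replicates 1 to 4, the median of the astrocytic glutamate list was 0.07, that of the 10 astrocyte markers 0.08 (it was -0.26 over all mice) and that of the immediate early list 0.02. This restriction was chosen after these values had been seen, and it leaves out the mice highest in astrocyte markers. It is a description and not a test. Slc1a3 went from a log2 fold change of -0.35 to 0.09, Fos from -0.32 to 0.25 and Arc, the synaptic cytoskeletal gene, from -0.36 to -0.03. Arc measured 119, 149 and 303 CPM in HFS ad lib and 104, 143 and 174 CPM in HFS TRF mice. In pull-downs from tissue, more astrocytes, more astrocytic RNA per cell and more of that RNA on phosphorylated ribosomes cannot be told apart. What set replicates 5 and 6 apart was not given in the labels.

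Transcripts of cerebellar cells were present in some libraries. The 8 Purkinje and cerebellar genes were put together after their values had been seen, so their shared direction is a description and not a result, and 6 of the 8 were scarce (mean log2 CPM of 2 or less). None was a DEG. Pcp2, a Purkinje cell protein, measured 0.22 CPM in HFS ad lib replicate 1 and 3.33 to 11.1 CPM in the other 5, and 0.27 to 1.09 CPM in HFS TRF mice (log2 fold change -3.00). One NC ad lib mouse had 15.4 CPM. Skor2 had 0 counts in each HFS TRF mouse and 0, 8, 8, 8, 12 and 29 counts in HFS ad lib mice, whereas Gabra6, of cerebellar granule cells, had 2 and 6 counts in 2 HFS ad lib mice and 0 in all other mice of both groups. The list summed to 2.03 to 45.7 CPM in HFS ad lib and 1.98 to 6.16 CPM in HFS TRF mice.

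Of 8 blood markers, 0 were DEG and 5 were lower at an unadjusted p under 0.05 (62.5%, beside 3.37% of all genes), with a median of -0.58, and the list summed to 124.5, 244 and 345 CPM in HFS ad lib and 97.7, 144 and 229.8 CPM in HFS TRF mice. Hba-a1, an alpha globin whose reads may be shared with Hba-a2, measured 22.6, 43.9 and 70.0 CPM against 18.0, 27.0 and 39.7 CPM (log2 fold change -0.71, standard error 0.23), and Alas2, the first enzyme of haem synthesis in red cells, 3.07, 6.29 and 8.07 CPM against 2.04, 3.69 and 4.87 CPM (log2 fold change -0.68). With a Purkinje marker score as a covariate, 0 genes were DEG and 1320 had an unadjusted p under 0.05. Beyond that, the part of these cells in the results was not tested. The remaining marker lists had 0 genes lower at an unadjusted p under 0.05 and 1 higher, the oligodendrocyte precursor marker Cspg4 (3.74, 4.58 and 7.44 CPM against 5.60, 6.69 and 7.98 CPM, log2 fold change 0.37, standard error 0.16), and medians of -0.04 (myelinating oligodendrocytes), 0.10 (oligodendrocyte precursors), -0.07 (microglia), -0.01 (endothelial cells), 0.14 (mural and leptomeningeal cells), -0.04 (dentate granule cells), 0.03 (CA1 and CA3 pyramidal cells), -0.01 (CA2 pyramidal cells) and 0.03 (thalamus, striatum and cortex).

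**Figure D5:**
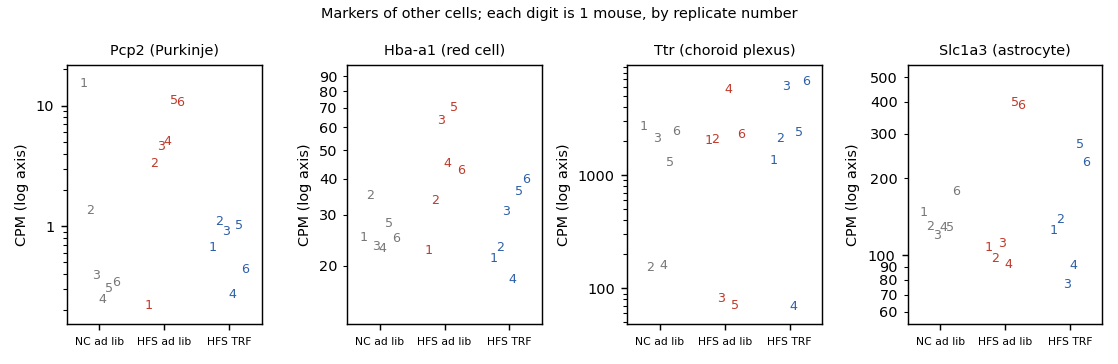
Level in CPM, on a log axis, of Pcp2 (Purkinje cells), Hba-a1 (red cells), Ttr (choroid plexus) and Slc1a3 (astrocytes) in each mouse at HC zt3; each digit is a mouse, named by its replicate number. Pcp2 is high in 5 of 6 HFS ad lib mice, Ttr is lowest in replicates 3 and 5 of HFS ad lib and replicate 4 of HFS TRF, and Slc1a3 is highest in replicates 5 and 6 of both.

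The difference at zt3 was then set against that at other times. At HC zt15, in the dark with food present, the same contrast had 0 DEG (0%) and 4694 genes at an unadjusted p under 0.05 (15.6%), and at ORM+1 h 0 DEG (0%) and 1971 (6.54%). The change in the contrast between HC zt3 and HC zt15 passed the test for 0 genes (0%, smallest adjusted p 0.461, 2535 or 8.41% at an unadjusted p under 0.05), and between HC zt3 and ORM+1 h for 0 genes (0%, smallest adjusted p 0.75, 1685 or 5.59%). DESeq2 also called 0 for both, with 1493 and 780 at an unadjusted p under 0.05. HC zt15 mice came from a second experiment with 5 HFS TRF mice, so that hour and experiment cannot be told apart.

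Ribosomal protein genes had a median of 0.15 at HC zt15 (77 of 79 positive) and of -0.03 at ORM+1 h (20 of 79), and nuclear oxidative phosphorylation genes of 0.16 (63 of 72) and -0.07 (17 of 72). The length relation had a rho of -0.27 at HC zt15 and of 0.18 at ORM+1 h. The clock list had medians of -0.04 and 0.06, the PPAR list of 0.08 and 0.02 and the immediate early list of -0.01 and 0.05. Astrocytic glutamate genes had a median of 0.22 at HC zt15 and 0.21 at ORM+1 h, beside -0.20 at HC zt3 and 0.07 there with replicates 1 to 4 only. The mitochondrially encoded list, at -0.42 at HC zt3, had medians of 0.52 at HC zt15 (10 of 13 positive) and -0.95 at ORM+1 h (0 of 13). At an unadjusted p under 0.05, 2 of its genes were higher at HC zt15 and 9 lower at ORM+1 h. Of all genes, 15.6% and 6.54% had such a p in either direction.

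Each HFS group was also set against NC ad lib at HC zt3, comparisons that share mice with that between the HFS groups. Htr4 had log2 fold changes of -0.10 in HFS TRF against NC ad lib mice and of 0.44 in HFS ad lib against NC ad lib mice. In the same order, Per3 had log2 fold changes of 0.13 and 0.47, and Cort of 0.08 and -0.45. Cry1 was at -0.18 and 0.01. The ribosomal protein list had medians of 0.02 and -0.12, and the nuclear oxidative phosphorylation list of 0.01 and -0.12, and the mitochondrially encoded list of 0.57 and 0.97. Its 13 genes summed to 215 to 397 CPM in NC ad lib, 395 to 751 CPM in HFS ad lib and 287 to 577 CPM in HFS TRF mice.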

How the data were processed

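Raw counts of 71 mice were used. The authors trimmed paired-end reads (Trim Galore 0.6.7, cutadapt 3.4), aligned them to GRCm39 with HISAT2 2.2.0 (the submitters' notes also list mm9) and counted unique reads per gene with featureCounts (Subread 2.0.3). The deposited values are these counts, neither filtered nor normalised. The annotation release and the strand setting are not given in the sources used here, so overlapping and antisense genes are uncertain. Symbols, lengths and coordinates came from a GRCm39 annotation that matched 56310 of 57010 gene IDs.

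Genes with at least 10 counts in total were fitted with edgeR 4.0.16 (R 4.3.3, TMM, quasi-likelihood test), all 12 groups together, with p adjusted by Benjamini-Hochberg over 30141 genes at a threshold of 0.05. The study used DESeq2, run here as version 1.42.0 as an alternative. CPM is the count scaled by the TMM effective library size, as edgeR gives it, and log2 CPM used a prior count of 2. Fold changes are HFS TRF over HFS ad lib, with 95% intervals. P-values weigh the mean difference against the spread between mice, as estimated over all 12 groups and moderated across genes. The mean difference rests on 6 mice per group, and counting error covers sequencing only.

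The members and lists were chosen with earlier results of these data known. Named are protein-coding genes with the smallest p (up to 5 per direction where none passed), the 2 to 4 list members with the smallest p and all clock genes. Some genes are not reported here by name, but counts and medians of lists include them. The text also names other genes picked after their values were seen, such as Pdk4, Irs2, Fkbp5, Fos and Dio2, beside the haemoglobin and Purkinje genes. Of 18 gene lists and 14 marker lists, 1 was added after the data were seen. No 2 libraries of a group agreed within sampling noise (lowest chi-square per degree of freedom 9.8). The model was tested on simulated counts, drawn independently for each gene and mouse. These lack the variation shared between genes that the present libraries show.

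Alternatives were other size factors, DESeq2, filters, smaller models, a replicate block, each mouse left out, and, added after the data were seen, covariates, replicates 1 to 4 only and halved counts.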

Additional observations from a re-analysis of the deposited data

Results flagged for a closer look

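Of 330 sets of 6 mice checked, 1 for each named gene or list sum and HFS group, 15 held a mouse whose gap to the nearest other mouse was a larger share of the set's range than Dixon's 95% critical value, and chance gives about 1 in 20. In HFS ad lib replicate 3, Cort was low at 2.22 CPM (the others 4.77 to 6.12 CPM), Npy was low at 23.1 CPM (34.2 to 40.8 CPM) and Iglc1 was high at 0.197 CPM, the others being at 0.0346 CPM or less. In replicate 4 of the same group, Dio3 was high at 6.15 CPM (1.63 to 2.93 CPM), Rps10 at 13.0 CPM (10.3 to 11.3 CPM) and Stx4a at 38.5 CPM (33.6 to 35.4 CPM). In replicate 5, Hif3a was high at 1.44 CPM (0.623 to 0.862 CPM) and Tsc22d3 at 72.3 CPM (44.2 to 54.1 CPM). In replicate 6, Becn1 was low at 122 CPM (136 to 141 CPM), while the Purkinje genes Car8, at 24.6 CPM (1.22 to 9.94 CPM), and Ppp1r17, at 5.75 CPM (0.292 to 2.32 CPM), were high.

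Among HFS TRF mice, replicate 3 was low in Rictor at 16.9 CPM (the others 20.8 to 22.9 CPM). Replicate 5 was high in Car8 at 4.05 CPM (1.51 to 2.08 CPM) and in Nr1d2 at 62.5 CPM (50.7 to 54.4 CPM). In replicate 6 the genes of the integrated stress response and amino acid supply summed to 882.6 CPM (815 to 839.9 CPM).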

How the results depend on the processing

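The count of DEG was 0 in 25 of 27 alternatives and 1, lower, in both others: Iglc1 with DESeq2 and Htr4 in the 36 mice of the first experiment. Genes at an unadjusted p under 0.05 numbered 1774, but 857 with DESeq2, 771 of 21512 after edgeR's expression filter, 795 of 17601 protein-coding genes, 950 with replicates 1 to 4 only, and 1376 to 2111 with 1 mouse left out. Replicate numbers gave no steady pairing of the mice. Correlations of same-numbered mice's deviations from their group means ran from -0.673 (replicate 4) to 0.549 (replicate 6), with 0.294 for replicate 5. With a replicate block there were 0 DEG and 983 genes (71 mice) or 1352 (12 mice) at an unadjusted p under 0.05. The changes of the contrast with time kept 0 DEG in each alternative run.

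List medians moved by less than the SD over mice within groups except for energy sensing (0.0118 with replicates 1 to 4), nuclear oxidative phosphorylation and ribosomal protein genes (0.0079 and 0.0182 with the length index) and Purkinje genes (-0.246 with their own score). Within that spread several small medians changed sign. Those of the glucocorticoid, immediate early, astrocytic glutamate and astrocyte lists turned positive with replicates 1 to 4, and without HFS ad lib replicate 5 so did the median log2 fold change, glucocorticoid-responsive genes (0.015) and the median log2 fold change, astrocytes (0.0619). For single genes, signs turned, none with an adjusted p under 0.05, in these cases, whose cause was not tested. With replicates 1 to 4 the log2 fold changes were 0.0623 for Gjb6, 0.103 for Pfkfb3, 0.0952 for Gja1, 0.069 for Grm3, 0.0174 for Gpam, -0.103 for Cirbp, -0.0128 for Bhlhe40, 0.0864 for Slc1a3, -0.00299 for Rbm3, 0.25 for Fos, 0.251 for Thrsp, 0.0604 for Tsc22d3, 0.111 for Nfil3 and -0.144 for Npas2. With the Purkinje score they were 0.065 for Ppp1r17, 0.371 for Pcp2, 0.438 for Car8, 0.485 for Gabra6 and 0.0173 for Fos. All of these but Fos belong to the list from which the score was made, so their turn was built in and is not a result. With the length index they were 0.00936 for Grin2a, 0.0162 for Clock, -0.000755 for Pmvk and 0.0162 for Hspa4l. With 1 mouse left out, Gpam ranged from -0.364 to 0.0212, Rorb from -0.527 to 0.0983 and Thrsp from -0.315 to 0.128, turning without HFS ad lib replicate 5, and Fos from -0.467 to 0.0107, turning without HFS ad lib replicate 6. With 6 mice a group, the 95% interval lay within 1.5-fold for 93.6% of genes with a mean log2 CPM above 2, but not for Pdk4.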
